A study of Mus musculus with 8 samples.

Results

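Krüppel-like factors (KLFs) are zinc-finger transcription factors, and 8 of them, listed for the crypt and villus of the gut, were followed here: Klf3, Klf4, Klf5, Klf6, Klf9, Klf10, Klf13 and Klf15. The 8 genes were taken by name, and their values were read from rows carrying each gene's Ensembl identifier and matching its annotated exons on mm10. Of the 8, 7 had an entry among 13451 genes with a value, and 6 passed a filter at a mean of 0.5 FPKM (fragments scaled to transcript length and to the mapped fragments of the library), among 10420 genes tested. Klf13 (chr7:63886351-63938915, minus strand) had no entry and was not analysed here, and Klf15 had a value in only 2 samples.

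The study sequenced total RNA of mouse intestinal organoids, which are three-dimensional cultures grown from isolated crypts that form crypt-like and villus-like regions. The 4 WT samples had the genotype wt. The 4 MG53-TG samples had the genotype mg53-tg, with global overexpression of MG53 (the product of Trim72, a muscle-enriched membrane repair protein). The crypts of both groups were released with EDTA, embedded in Matrigel and cultured in IntestiCult OGM medium, with no further treatment named for these samples. The study's text also mentions organoids that carry an Lgr5 allele beside the MG53 transgene for its bulk sequencing, which the labels do not, and the labels were followed. The promoter that drives the transgene, the age of the mice and whether the 4 samples of a group came from separate mice are not given in the sources used here, so the p-values measure only the spread between these samples.

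KLFs bind GC-rich and CACCC elements through their shared zinc fingers and differ in the regulatory parts outside them. In the gut epithelium Klf5 is known from dividing crypt cells and Klf4 from differentiated cells and goblet cell formation, and both can act on the same promoters in opposite directions. Klf6 and Klf10 are early-response genes, Klf10 of TGF-beta signalling in particular, Klf9 and Klf15 respond to glucocorticoids and the circadian clock, and Klf3 is a repressor that recruits CtBP. KLF genes themselves can be targets of KLF proteins.

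The promoters of Klf4, Klf6 and Klf9 are shown because these genes were lower together in MG53-TG organoids while their upstream sequences differ in KLF consensus content. Klf10 was also lower, but neither it nor Klf5 had a promoter in the RefSeq table used. Each sequence shown is the 250 bases before the RefSeq start on GRCm38.p6, written 5′ to 3′ on the gene's strand. Capitals mark matches to CCNCNCCC on either strand, with overlapping matches merged.
Klf4 (chr4:55532476-55532725, minus strand): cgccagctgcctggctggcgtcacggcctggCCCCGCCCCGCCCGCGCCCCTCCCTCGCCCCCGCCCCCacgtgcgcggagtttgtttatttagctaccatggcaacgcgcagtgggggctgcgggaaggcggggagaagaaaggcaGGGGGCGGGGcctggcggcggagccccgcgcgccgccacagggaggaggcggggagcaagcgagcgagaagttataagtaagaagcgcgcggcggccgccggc
Klf6 (chr13:5861239-5861488, plus strand): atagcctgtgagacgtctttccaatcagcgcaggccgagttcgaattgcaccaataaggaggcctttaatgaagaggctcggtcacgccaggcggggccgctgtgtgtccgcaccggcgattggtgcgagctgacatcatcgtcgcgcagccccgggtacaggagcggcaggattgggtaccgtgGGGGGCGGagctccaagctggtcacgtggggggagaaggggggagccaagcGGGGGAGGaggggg
Klf9 (chr19:23140976-23141225, plus strand): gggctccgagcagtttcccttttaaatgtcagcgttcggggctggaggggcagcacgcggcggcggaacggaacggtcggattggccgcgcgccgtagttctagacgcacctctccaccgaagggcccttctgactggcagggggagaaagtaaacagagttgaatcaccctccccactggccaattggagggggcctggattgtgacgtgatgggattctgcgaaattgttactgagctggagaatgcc
The Klf4 window held 9 matches, the Klf6 window 2 and the Klf9 window 0. Of the 32851 promoter windows of this length in the RefSeq table, 45.9% held at least 1 match, 27.3% held at least as many as Klf6 and 1.31% at least as many as Klf4. The GC content was 74.0% for Klf4, 64.8% for Klf6 and 59.6% for Klf9, against a median of 52.4% over all windows. The E-box CACGTG, which occurred in 6.02% of windows, was found once each in the Klf4 and Klf6 windows and not in the Klf9 window. Of the other listed genes in the table, Klf3 had 10 matches to CCNCNCCC, Klf13 had 5 and Klf15 had 3. These are letter matches only and say nothing of binding.

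Across the series, 4651 of 10420 genes (44.6%) passed the limma test at a Benjamini-Hochberg adjusted p of 0.05, of which 1622 were higher (15.6%) and 3029 lower (29.1%) in MG53-TG. The median over all tested genes was -0.17 on the log2 scale, and median-of-ratios scaling moved it by 0.16, after which 40.8% of genes passed, 20.4% higher and 20.4% lower. Trim72 itself was listed in no WT sample, against 16.4, 27.4, 31.9 and 36.5 FPKM in the MG53-TG samples in order. The MG53-TG samples were not uniform: the summed FPKM of 14 proliferation markers was 526 and 543 in samples 1 and 2 but 252 and 168 in samples 3 and 4, against 756 to 816 in WT.

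Of the 6 KLFs tested, 4 (Klf4, Klf6, Klf9 and Klf10) were lower and 0 higher in MG53-TG, against 29.1% lower and 15.6% higher among all genes tested. Klf5 was higher in all 4 MG53-TG samples but narrowly missed the threshold on the deposited scale, and Klf3 overlapped between the groups. The groups did not overlap for 5 of the 6, with 4 lower and 1 higher in MG53-TG, against 29.0% and 15.7% of all genes tested (44.7% in all). With 4 samples against 4, the smallest two-sided exact permutation p is 0.0286. In RNA from whole organoids, a lower level can mean fewer cells of a type or less RNA per cell, and these cannot be told apart. Fold changes are on the log2(FPKM + 1) scale, MG53-TG minus WT, with their standard error (SE).

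**Figure D1:**
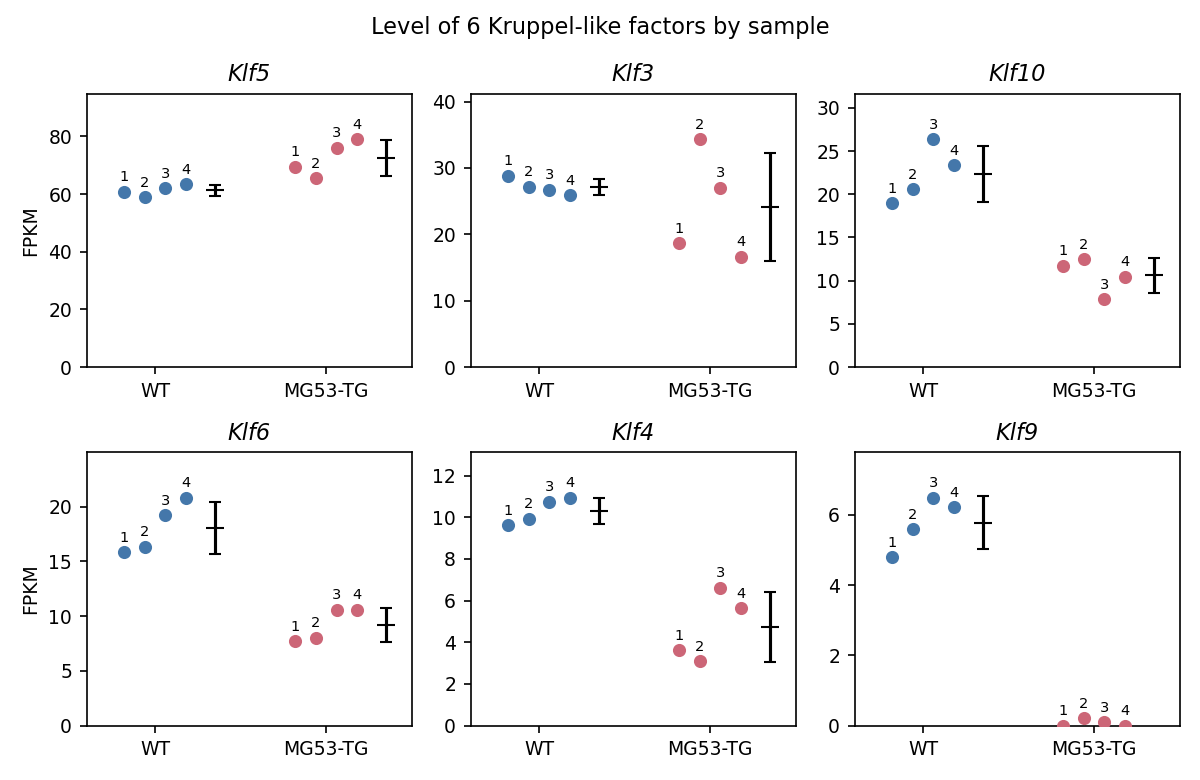
FPKM of 6 Krüppel-like factors in each sample, with samples numbered and the bar giving mean ± SD (n = 4). No bar is drawn for Klf9 in MG53-TG, where samples 1 and 4 had no entry and are drawn at 0. The groups are apart for Klf4, Klf5, Klf6, Klf9 and Klf10, and the MG53-TG values of Klf3 lie above, below and among the WT values.

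Klf5 (chr14:99298691-99315036, plus strand), known for promoting proliferation of crypt cells, was the most abundant of the listed factors in both groups. It measured 60.9, 58.9, 62.1 and 63.5 FPKM in WT samples 1 to 4 and 69.5, 65.4, 76.1 and 79.1 FPKM in MG53-TG samples 1 to 4. Every MG53-TG value was above every WT value, and the WT values were tightly grouped. The log2 fold change was 0.23 (SE 0.09, n = 4 per group), with a limma adjusted p of 0.0519 and an exact permutation p of 0.0286. With median-of-ratios scaling the difference was 0.42 and passed the limma test (adjusted p = 0.0232), and with quantile normalization it was 0.19 and did not (adjusted p = 0.0799). Leaving out MG53-TG sample 2, the lowest of that group, gave 0.28 (limma adjusted p = 0.0246). The groups were fully separated, but the difference lay close to the threshold, and several other settings also moved it across. With MG53-TG samples 3 and 4 left out it was 0.13 (limma adjusted p = 0.159), and with samples 1 and 2 left out 0.33 (limma adjusted p = 0.00591). Klf5 was measured from a single start event and a single end event, and the end event gave nearly the same level, 61.2 FPKM in WT and 72.3 FPKM in MG53-TG on average.

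Klf4 (chr4:55527143-55532466, minus strand), a factor of differentiated cells that also restrains the cell cycle, moved the opposite way. It was at 9.63, 9.94, 10.7 and 10.9 FPKM in WT and at 3.62, 3.09, 6.63 and 5.64 FPKM in MG53-TG. The groups did not overlap, and MG53-TG samples 1 and 2 were lower than samples 3 and 4. The log2 fold change was -1.02 (SE 0.20, limma adjusted p = 0.00364), and it was -0.85 with median-of-ratios scaling (limma adjusted p = 0.0190). On the linear scale the mean fell from 10.3 ± 0.629 to 4.75 ± 1.67 FPKM (SD, n = 4). With samples 3 and 4 left out the change was -1.38, and with samples 1 and 2 left out it was -0.67, each past the limma threshold.

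The ratio of Klf5 to Klf4 FPKM was 6.33, 5.93, 5.78 and 5.81 in WT and 19.2, 21.2, 11.5 and 14.0 in MG53-TG, so that the lowest MG53-TG ratio was above the highest WT ratio. Most of this came from Klf4, which passed the test, since mean Klf5 went only from 61.4 to 72.5 FPKM and did not pass. Of 8 goblet cell markers tested, a lineage for which Klf4 is known, 5 fell and 0 rose (median log2 fold change -0.93), against 29.1% lower and 15.6% higher among all genes tested, with Muc2, the main gut mucin, at 20.4 to 28.7 FPKM in WT and 3.00 to 14.0 FPKM in MG53-TG. The summed level of the 9 goblet markers with an entry was 689 to 782 FPKM in WT. It was 187, 259, 429 and 510 FPKM in MG53-TG samples 1 to 4, with samples 1 and 2 the lower pair as for Klf4. This order was not particular to goblet markers and Klf4. Samples 1 and 2 were also the lower pair for Klf5 and for the summed enterocyte markers (9656 and 9213 against 11868 and 12218 FPKM). They were the higher pair for the summed stem cell and proliferation markers. The lectin gene Zg16 went the other way, at 5.25 to 11.2 FPKM in WT and 7.57, 11.8, 53.0 and 62.2 FPKM in MG53-TG (log2 fold change 1.33, limma adjusted p = 0.119), and it passed as higher without MG53-TG sample 1. Creb3l1 and Clca1 did not pass either (log2 fold changes 0.09 and -0.44). The part of goblet cell number in the Klf4 difference was not tested.

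Klf6 (chr13:5861482-5870394, plus strand), an early-response factor, was at 15.8, 16.3, 19.2 and 20.8 FPKM in WT and at 7.73, 8.01, 10.6 and 10.6 FPKM in MG53-TG. The groups did not overlap, and MG53-TG samples 1 and 2 were lower than samples 3 and 4, as for Klf4. The log2 fold change was -0.90 (SE 0.14, limma adjusted p = 0.00130), or -0.72 with median-of-ratios scaling. With samples 3 and 4 left out the change was -1.09, and with samples 1 and 2 left out it was -0.71, each past the limma threshold. Its single start and single end event gave the same values.

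Klf10 (chr15:38291463-38300706, minus strand), known as TGF-beta-inducible early gene 1, was at 19.0, 20.6, 26.4 and 23.3 FPKM in WT and at 11.7, 12.5, 7.88 and 10.4 FPKM in MG53-TG. Here too the groups did not overlap, but MG53-TG sample 3 was the lowest rather than samples 1 and 2. The log2 fold change was -1.01 (SE 0.16, limma adjusted p = 0.00128), or -0.83 with median-of-ratios scaling. The first exon ending inside the gene at 38300559 carried most of the signal, with means of 21.9 FPKM in WT and 10.1 FPKM in MG53-TG, and 2 minor starts stayed below 1 FPKM in every sample.

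Klf9 (chr19:23141226-23168134, plus strand), a glucocorticoid-responsive factor, showed the widest separation. It was at 4.80, 5.59, 6.49 and 6.22 FPKM in WT, whereas in MG53-TG it was at 0.219 FPKM in sample 2 and 0.105 FPKM in sample 3, and samples 1 and 4 had no entry. All 4 WT samples were thus well above all MG53-TG samples, the start and end events alike. The log2 fold change was -2.65 (SE 0.13, limma adjusted p = 2.85e-06) with absent entries set to 0 and -2.54 when they were taken as missing, and 0.489% of all genes tested had a lower value. The size rests on the pseudocount for so low a level, and with 0.1 in place of 1 FPKM it was -5.19. An absent entry is not always a level of 0, since 12 genes with a median of at least 10 FPKM where listed, in at least 5 samples, had no entry in another sample.

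Klf15 (chr6:90462576-90475238, plus strand), a regulator of amino acid and glucose metabolism, was barely listed. It had 0.211 FPKM in WT sample 1 and 0.0818 FPKM in WT sample 2, with no entry in the other 6 samples, and it was under the filter. Amino acid catabolism genes, a process Klf15 is known for in other tissues, had 10 genes tested, of which 3 rose and 3 fell (median log2 fold change 0.06), the lower share close to the 29.1% of all genes tested and the higher beside 15.6%. Oat, ornithine aminotransferase, rose from 453 to 476 FPKM in WT to 1513 to 1683 FPKM in MG53-TG, and Gpt, alanine aminotransferase, rose from 2.86 to 4.67 FPKM to 10.6 to 34.0 FPKM. Prodh, which starts proline breakdown, fell from 1.14 to 1.68 FPKM to 0.0965 to 0.593 FPKM. With median-of-ratios scaling 4 rose and 1 fell, against 20.4% of all genes tested each way.

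Klf3 (chr5:64803388-64832901, plus strand) was the second most abundant factor. It was at 28.8, 27.2, 26.7 and 25.9 FPKM in WT and at 18.6, 34.3, 27.0 and 16.6 FPKM in MG53-TG. The MG53-TG samples fell above, below and within the narrow WT range. The log2 fold change was -0.22 (SE 0.21, limma adjusted p = 0.417), while the SD of the log2 values was 0.06 in WT and 0.46 in MG53-TG, 7.48 times as large. The spread itself was not tested.

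The samples also differed in which first exon of Klf3 was listed, in both groups. The upstream first exon (64803388-64803791) carried 8.21%, 13.6% and 23.2% of the start signal in WT samples 1 to 3 and 98.9% in WT sample 4. It carried 80.8% and 94.0% in MG53-TG samples 2 and 3 and 18.5% and 17.8% in samples 1 and 4. The other main first exon (64812339-64812503) carried from 84.0% in WT sample 1 down to 0.26% in WT sample 4 and 0.113% in MG53-TG sample 3. Each sample thus had one or the other as its main start, and neither share differed between WT and MG53-TG by an exact permutation test (p = 0.686 and 0.486, adjusted p of 1.00 over 7 event shares compared). In the annotation both lead to the same start codon in exon 2 (64816774-64816776), so both are 5′ untranslated first exons.

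The end events of Klf3 split the MG53-TG samples as the first exons did, with samples 1 and 4 apart from samples 2 and 3. The summed end events were 89.8%, 93.2%, 80.2% and 97.1% of the summed start events in WT. In MG53-TG they were 76.9% in sample 2 and 96.3% in sample 3, but 14.6% in sample 1 and 12.0% in sample 4, where the ends came to only 2.72 and 1.99 FPKM. Samples 1 and 4 were also the pair with the lower start sum. The WT samples showed no such split at the end, although their first exons differed. From end events alone the log2 fold change was -1.41 and did not pass the limma test (adjusted p = 0.158), so the level of Klf3 in these 2 samples depended on which end of the gene was read.

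**Figure D2:**
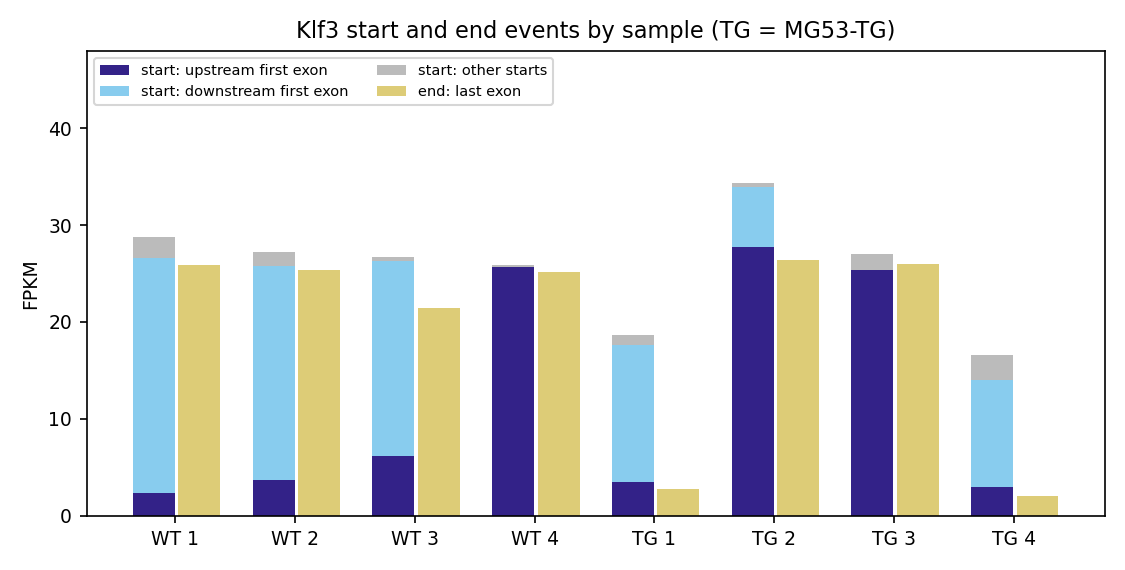
FPKM of Klf3 start events, stacked by first exon (left bar), and of its end events (right bar) in each sample. The upstream first exon leads in WT 4 and in MG53-TG 2 and 3, and the end events are at 2.72 and 1.99 FPKM in MG53-TG 1 and 4.

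Klf4 had an alternative start in 1 sample. In MG53-TG sample 2, 2.04 FPKM lay on a first exon with its boundary at 55531630, annotated for a shorter transcript of the gene, and the main first exon, with its boundary at 55531867, carried 34.0% of the start signal. In the other 7 samples the main first exon carried all of it. The shorter transcript has its own annotated start codon in that exon (55531726-55531728), downstream of that of the main transcript (55531869-55531871). The end event of Klf4 in sample 2 was at 3.09 FPKM, equal to the sum of both starts.

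FPKM values are per length, so the levels of the factors can be set side by side. In both groups the order was Klf5, Klf3, Klf10, Klf6, Klf4, Klf9 and Klf15. In WT, Klf3 and Klf10 overlapped, as did Klf10 and Klf6; in MG53-TG, Klf10 and Klf6 overlapped, as did Klf9 and Klf15. The summed level of the listed factors was 145 ± 7.10 FPKM in WT and 121 ± 7.21 FPKM in MG53-TG (SD, n = 4). Klf5 made up 42.3% ± 1.16 of that sum in WT and 59.8% ± 5.09 in MG53-TG. The shares of Klf10, Klf6 and Klf4 went from 15.3%, 12.4% and 7.11% to 8.84%, 7.58% and 3.88%.

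**Figure D3:**
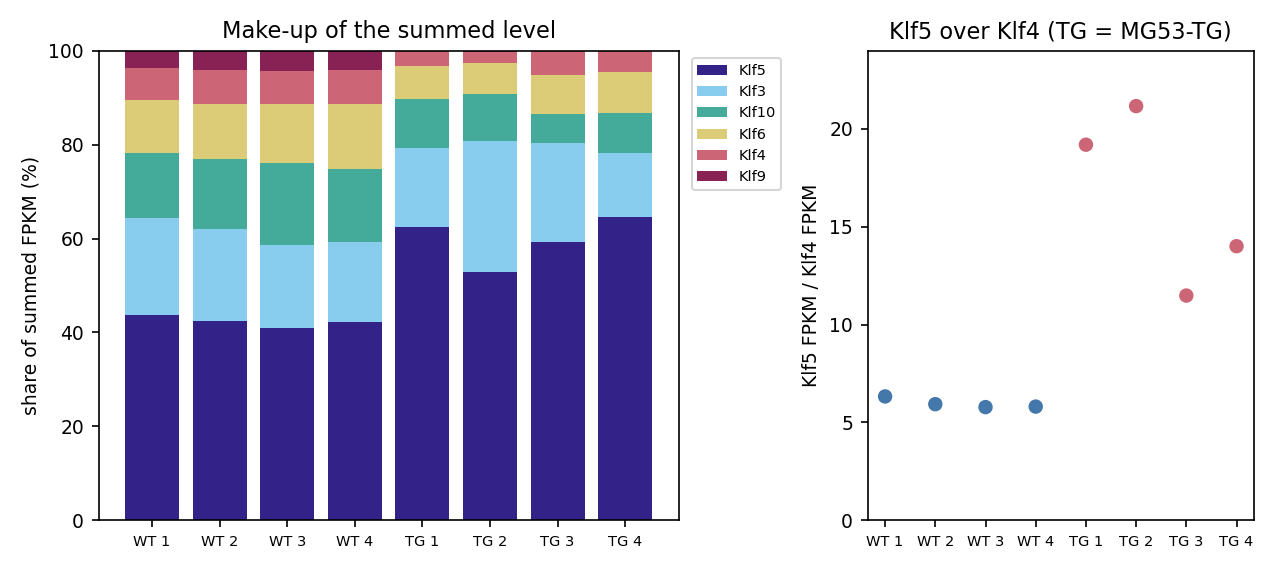
Left, share of each factor in the summed FPKM of the listed Krüppel-like factors per sample; right, the ratio of Klf5 to Klf4 FPKM. The Klf5 share lies between 40.9% and 43.8% in WT and between 52.9% and 64.6% in MG53-TG, and all 4 MG53-TG ratios (11.5 to 21.2) are above those of WT (5.78 to 6.33).

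Of 18 other KLF and Sp genes, the wider family that shares these zinc fingers, 10 had an entry and 7 were tested, of which 3 were lower and 0 higher, against 29.1% lower and 15.6% higher among all genes tested. Sp1, a broadly active factor of GC boxes, fell from 18.8 to 23.7 FPKM in WT to 9.44 to 14.7 FPKM in MG53-TG (log2 fold change -0.83, SE 0.14, limma adjusted p = 0.00191). Sp5, a Wnt target gene, was at 3.90, 4.15, 4.51 and 4.96 FPKM in WT against 1.98, 1.39 and 0.553 FPKM for samples 1, 2 and 4 of MG53-TG (log2 fold change -1.27, limma adjusted p = 0.00302, with sample 3 absent and left out of its fit). Sp2 fell by 0.59 on the log2 scale (limma adjusted p = 0.00510). Klf11, the closest relative of Klf10, was at 5.49 to 5.66 FPKM in WT and 3.71 to 5.11 FPKM in MG53-TG without passing the limma test (log2 fold change -0.30, adjusted p = 0.0545). Klf7, Sp3 and Sp4 had log2 fold changes of 0.09, -0.12 and -0.15 and did not pass either, the sign of Sp3 turning with median-of-ratios scaling (0.06). Klf1, Klf2 and Sp9 were under the filter, with no sample above 1.08 FPKM.

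**Figure D4:**
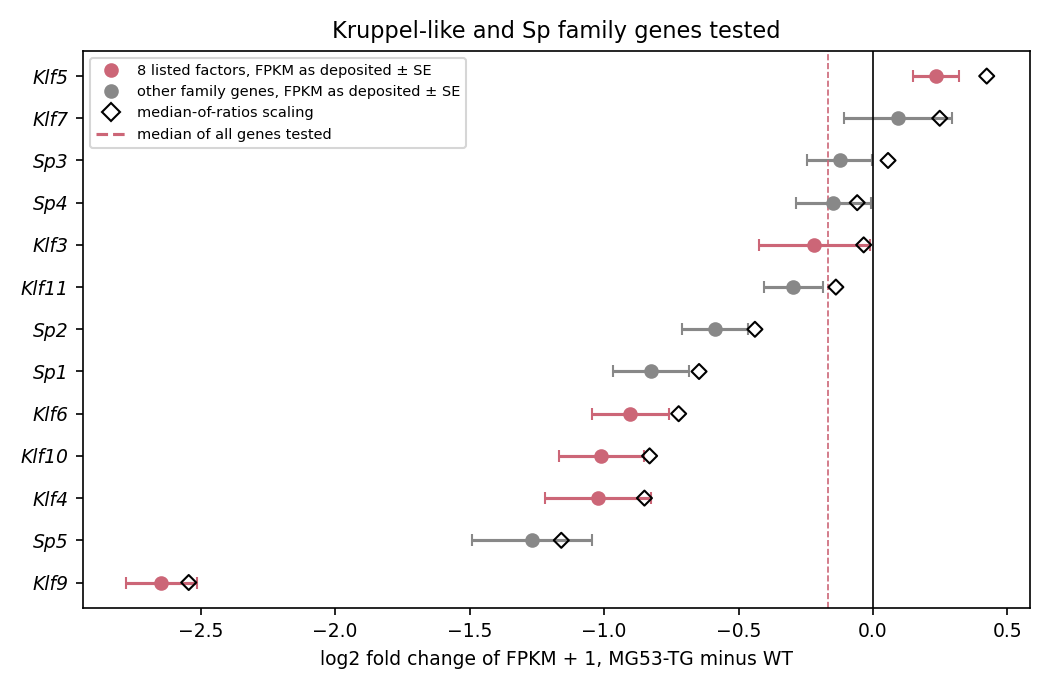
Log2 fold change of FPKM + 1 (MG53-TG minus WT) for the 13 Krüppel-like and Sp family genes tested, as deposited (circles, ± SE) and with median-of-ratios scaling (diamonds). The dashed line is the median of all genes tested, -0.17. Klf9 is lowest at -2.65 and Klf5 highest at 0.23.

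Among 12 cofactors and regulators of KLF proteins, 3 fell and 0 rose (median log2 fold change -0.27), a share of lower genes not above the 29.1% of all genes tested. Wwp1, a ubiquitin ligase that acts on Klf5, fell from 10.4 ± 0.354 FPKM in WT to 5.02 ± 0.471 FPKM in MG53-TG (SD, n = 4, log2 fold change -0.93, limma adjusted p = 0.000151). Fbxw7, part of another ubiquitin ligase that recognises Klf5, fell by 0.52 and Ctbp1, the corepressor bound by Klf3, by 0.50 on the log2 scale. Without WT sample 1 or without MG53-TG sample 3, 1 of the 12 passed as lower. With median-of-ratios scaling 2 of the 12 were lower and 2 higher.

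Of 10 gut genes known as targets of Klf4 or Klf5, 1 rose and 3 fell (median log2 fold change -0.34), close to the 15.6% higher and 29.1% lower among all genes tested. Alpi, intestinal alkaline phosphatase and a known Klf4 target of enterocytes, rose while Klf4 fell: it was at 15.3 to 20.7 FPKM in WT and at 97.9 to 118 FPKM in MG53-TG (log2 fold change 2.58, limma adjusted p = 1.45e-06). Ccnb1 and Cdk1, which drive entry into mitosis and are known Klf5 targets, fell while Klf5 was higher, by 1.82 and 1.17 on the log2 scale. Cdkn1b, a cell cycle inhibitor, was the other gene that fell. With median-of-ratios scaling its call was lost, and 1 rose and 2 fell, against 20.4% of all genes tested each way. Without WT sample 3, 2 of the 10 passed as higher.

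The cell type markers also differed between the groups, and their counts stand against 15.6% higher and 29.1% lower among all genes tested. All 15 enterocyte markers rose (median log2 fold change 2.69), led by Fabp1 (256 ± 38.9 to 5814 ± 361 FPKM, SD, n = 4) and Apoa4. Of 11 stem cell markers 8 fell, led by Olfm4, Axin2 and Ascl2, and of 14 proliferation markers 11 fell, led by Mcm5, Mki67 and Ccna2; without WT sample 1, 3 or 4 or MG53-TG sample 3, 5 of the 14 passed, and without WT sample 2, 6 did. All 7 Paneth cell markers tested fell, led by Defa24, Defa17 and Defa22 (median log2 fold change -2.99), and of 7 enteroendocrine markers 3 rose (Chgb, Chga and Tph1) and 0 fell. With median-of-ratios scaling 6 of the 7 Paneth cell markers and 10 of the 14 proliferation markers were lower. The lower Klf4 stood beside higher enterocyte markers. The part of cell type shares in the KLF values was not tested.

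Markers of cells outside the epithelium were low. The summed mesenchyme markers were at 1.80 to 3.24 FPKM in WT and 1.31 to 5.65 FPKM in MG53-TG. Col3a1 and Col1a2 had no entry in WT and stayed at or below 2.07 FPKM in MG53-TG, and their calls as higher (2 of 3 tested) were lost where absent entries all counted as 0 or as missing, from start events only and with a filter at a mean of 2 FPKM; without MG53-TG sample 4, 1 mesenchyme marker passed as lower. The summed immune markers were at 3.77 to 9.24 FPKM in WT and 0.609 to 1.47 FPKM in MG53-TG, with the macrophage-enriched Cd68 as the 1 marker tested, which fell. Of 6 endothelial markers 1 had an entry, and its highest value was 0.569 FPKM. Their part in the KLF values was not tested.

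Immediate early genes, the class to which Klf4, Klf6 and Klf10 belong in many cells, had 9 of 19 genes tested, of which 6 fell and 0 rose (median log2 fold change -0.82), against 29.1% lower and 15.6% higher among all genes tested. Ier3 was at 35.9, 41.8, 74.0 and 62.8 FPKM in WT and 7.72, 7.68, 9.44 and 9.95 FPKM in MG53-TG (log2 fold change -2.44, limma adjusted p = 6.39e-05). WT samples 1 and 2 were the lower pair for Ier3, as they were for Klf4, Klf6, Klf9 and Klf10. They were also the lower pair for Klf5, which was not lower in MG53-TG, and the higher pair for Klf3. How common this order is among all genes was not counted. Dusp1, a MAP kinase phosphatase, and Srf, the serum response factor that drives many of these genes, fell by 1.25 and 1.04 on the log2 scale. Fos, Atf3 and Maff were the others that fell. Egr1, Nr4a1 and Btg2 did not pass (log2 fold changes -0.56, -0.46 and 0.14). With median-of-ratios scaling 5 of the 9 fell and 0 rose, against 20.4% of all genes tested each way. Jun, Junb, Jund, Ier2, Ier5 and Zfp36 had no entry.

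In the TGF-beta pathway, which induces Klf10, 4 of 11 genes fell and 1 rose (median log2 fold change -0.23), against 29.1% lower and 15.6% higher among all genes tested. Tgif1, a repressor of Smad-driven transcription, fell by 1.22 on the log2 scale (limma adjusted p = 0.000976), and the receptor gene Tgfbr1 by 0.47. The single gene that rose, the repressor Ski, lost its call when any library other than MG53-TG sample 3 was left out (0 of 11 then passed as higher), and with sample weights. With median-of-ratios scaling 2 fell and 1 rose.

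The glucocorticoid receptor and its target genes, to which Klf9 and Klf15 belong, had 5 genes tested, of which 1 rose and 2 fell (median log2 fold change -0.28), near the 15.6% higher and 29.1% lower among all genes tested. Fkbp5, a chaperone partner of the receptor, fell from 4.45 to 4.84 FPKM in WT to 1.38 to 2.61 FPKM in MG53-TG, and Errfi1 fell by 0.64 on the log2 scale. Tsc22d3, which encodes the glucocorticoid-induced leucine zipper, rose from 10.7 to 12.9 FPKM to 15.4 to 22.8 FPKM. Without MG53-TG sample 1, 2 of the 5 passed as higher.

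Of 8 clock output genes tested, 2 were higher and 2 lower (median log2 fold change -0.05), near the 15.6% and 29.1% of all genes tested. Nr1d1, the clock repressor Rev-erb alpha, rose by 0.79 (limma adjusted p = 0.0230) and Tef by 0.49, while Bhlhe40 fell by 0.74 and Ciart by 0.64 on the log2 scale. Without WT sample 1 or WT sample 2, 1 of the 8 passed as higher. The time of day or of the culture cycle at harvest is not given in the sources used here.

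For each factor, the protein-coding gene with the most similar profile was the one with the smallest root mean square difference of centred log2(FPKM + 1) over the 8 samples. For Klf5 it was Lasp1, an actin-binding protein (difference 0.0443), at 69.8 to 73.1 FPKM in WT and 79.7 to 89.0 FPKM in MG53-TG. For Klf4 it was Fbp1, a gluconeogenic enzyme (0.125), which had the same lower pair, 8.51 and 8.35 FPKM in MG53-TG samples 1 and 2 against 16.0 and 15.9 FPKM in samples 3 and 4. For Klf6 it was Trib1, a pseudokinase that guides protein degradation (0.0837). For Klf10 it was Pgap1, which trims lipid anchors of proteins (0.0892), and for Klf3 it was Mtmr14, a phosphoinositide phosphatase (0.110). For Klf9 it was Wfdc2, a secreted protein (0.107), at 4.06 to 5.51 FPKM in WT and with no entry in MG53-TG. Among the listed factors themselves, Klf4 and Klf6 were the closest pair (0.162).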

How the data were processed

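Per the labels and the study's methods, reads were trimmed with Cutadapt 1.9.1 and mapped with HISAT2 2.0.1 to mm10; HTSeq 0.6.1 is also named. The authors deposited FPKM per transcript event (start, end or splicing event) for each sample; the tool is not given in the sources used here. Read depth is unknown, so no counting intervals are given; start events summed to 268767 to 283877 FPKM per sample. An event was used where its boundary matched an exon of its own gene in GENCODE M21 (4.58% of start and end events matched only another gene). A gene's level was the sum of its start events, or of its end events where that mean was higher. An absent entry was missing where the group's median was at least 0.5 FPKM and 0 otherwise. Of 1344 protein-coding genes of 1 exon, 26 had an entry, so their absence says nothing of their level. MG53-TG and WT were compared with limma 3.58.1 (R 4.3.3) on log2(FPKM + 1), keeping genes whose mean reached 0.5 FPKM, Benjamini-Hochberg adjusted over 10420 genes, and the listed factors also by an exact permutation test (two-sided, 70 relabellings). In simulated data of 10062 genes for this comparison, 200 were changed, none of them low in WT. Of these, 75% of changes of 1 and 97% of changes of 2 on the log2 scale were recovered, and 6 unchanged genes were called. A far larger share of genes (44.6%) passed in the real data, so the recovered shares do not give the power there or for low genes. The factors and gene lists were chosen with earlier results of these data known. Named are the listed factors, the tested family genes, up to 3 genes with the largest significant change per list, and the nearest profile of each factor; Zg16, Creb3l1, Clca1, Cdkn1b, Fos, Atf3, Maff, Egr1, Nr4a1, Btg2, Tef and Ski were named after their values were seen. Alternatives were other scalings, filters, pseudocounts, event choices, sample weights, robust moderation, a replicate block and leaving out samples; 3 were chosen after seeing the data (absent entries always missing, and leaving out MG53-TG samples 1 and 2 or 3 and 4). A gene or result withheld for evaluation is not reported here.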

Additional observations from a re-analysis of the deposited data

Results flagged for a closer look

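In WT sample 4, the share of the Klf3 start signal on the upstream first exon (98.9%) and on the other main first exon (0.26%) lay apart from the other 3 WT samples, farther than Dixon's 95% value for a gap in a group of 4. The share of the Klf4 start signal on its main first exon was 34.0% in MG53-TG sample 2 and stood apart from the other 3 MG53-TG samples in the same way. The levels of the factors and these shares gave 20 groups to examine, of which about 1 would be picked out by chance, against the 3 values found, and the first 2 are shares of the same sum.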

How the results depend on the processing

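Klf4, Klf6, Klf9 and Klf10 were lower and past the threshold in every alternative run (24 each, 23 for Klf10, for which end events alone gave no value). Klf5 was higher throughout and passed the limma threshold in 7: 0.24 with a pseudocount of 0.1 FPKM (adjusted p = 0.0493), 0.23 with no filter on low values (0.0425), 0.42 with median-of-ratios scaling (0.0232), 0.24 with sample weights (0.0435), 0.23 from end events only (0.0459), 0.33 with MG53-TG samples 1 and 2 left out (0.00591), and 0.28 without MG53-TG sample 2; leaving out 1 sample at a time gave 0.19 to 0.28. In those 7 the number of factors called higher was 1, and it was 0 to 1 over the samples left out; the cause was not tested. Klf3 passed in none of its 24. The difference in the Klf4 main start share ranged from -22.0 to 0 percentage points with 1 sample left out at a time. It was 0 without MG53-TG sample 2, which alone made it. With 1 sample left out at a time, the total number of genes past the threshold was 3715 to 4925. It was 5655 with MG53-TG samples 1 and 2 left out. Of 816 counts for the other lists, 47 moved by over 1.5 times. Same-numbered WT and MG53-TG samples did not deviate together (correlations 0.10, -0.02, 0.09 and -0.06), so the numbers were not read as pairs; with a replicate block 4238 genes passed and no factor changed its call, while the goblet markers called higher went from 0 to 1 and the TGF-beta genes called higher from 1 to 0. Depth, which is unknown, limits Klf9 in MG53-TG and Klf15, and an absent entry cannot be told from a failed estimate.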
